A study of Homo sapiens with 6 samples.

Results

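The cold shock domain genes are a small family of RNA-binding protein genes, taken here as 7 genes, of 16612 genes tested, named CSDC2, CSDA, YBX1, YBX2, LIN28, LIN28B and CARHSP1 on an Agilent expression array. All probes carrying one of these gene names were taken, which gave 14 probes of the 41000 on the array, 1 spot each. The cells were RH36, a line grown from an embryonal rhabdomyosarcoma (a muscle-lineage tumour) that lacks the PAX3/FOXO1 fusion. RH36 cells carrying a precursor of miR-27a (pre-miR-27a, 3 arrays) were compared with RH36 cells that received a negative pre-control precursor (3 arrays). The labels call the arrays of a group biological replicates and give 10 nM of precursor, with 48 hours after transfection for the pre-miR-27a arrays and, in the protocol of all arrays, 24 hours to the test of miR-27a over-expression. Both groups share the transfection itself, and all arrays come from this 1 cell line. The family was chosen by a measured value of these same arrays, the fall of CSDC2 in this comparison, so the CSDC2 values below describe that choice and carry no test. The other genes joined through their shared domain.

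The cold shock domain is an ancient fold that grips single-stranded RNA or DNA, and in animal cells its carriers package, stabilise or silence mRNA. The Y-box proteins YB-1 (gene YBX1), CSDA (now YBX3) and the germ-cell protein YBX2 coat mRNA in ribonucleoprotein particles. LIN28 (now LIN28A) and LIN28B join a cold shock domain to a pair of zinc knuckles and block the maturation of let-7, a microRNA family that silences growth and fetal genes. CSDC2 (also PIPPIN) and CARHSP1 are small proteins with a single cold shock domain, the first described mainly in brain and the second as a phosphoprotein that binds TNF mRNA.

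The microRNA delivered to the cells and the microRNAs on which the LIN28 proteins act are shown with bases 2 to 8, the seed that pairs with target mRNAs, in capitals. Sequences are from RefSeq, 5′ to 3′, on GRCh38.p14. miR-27a-3p lies at chr19:13836447-13836467 on the minus strand, miR-27b-3p at chr9:95085505-95085525 on the plus strand, let-7a-5p at chr9:94175962-94175983 on the plus strand, let-7g-5p at chr3:52268336-52268357 on the minus strand and miR-98-5p at chrX:53556299-53556320 on the minus strand.
miR-27a-3p: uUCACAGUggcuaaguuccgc
miR-27b-3p: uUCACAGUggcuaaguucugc
let-7a-5p: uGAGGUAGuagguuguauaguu
let-7g-5p: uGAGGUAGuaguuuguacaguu
miR-98-5p: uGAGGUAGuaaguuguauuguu
The seed of miR-27a-3p was carried by 3 of 2370 mature human microRNA names in the table, miR-27a-3p, miR-27b-3p and miR-9985. The let-7 seed was carried by 11 of the 2370, among them miR-98-5p. LIN28 proteins are known to bind the terminal loop region of the let-7 precursor, where their zinc knuckles hold a GGAG element. That element is in capitals in the let-7g hairpin (chr3:52268278-52268361, minus strand).
let-7g hairpin: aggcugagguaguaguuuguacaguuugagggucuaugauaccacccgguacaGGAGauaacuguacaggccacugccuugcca
Read along the transcript strand alone, the letters GGAG were found after the 5p mature sequence in 9 of 12 let-7 and miR-98 hairpins, 75%, and anywhere in the hairpin in the same 75%. Over all 1562 hairpins of the table the share with GGAG was 43.4%. let-7 and miR-27a RNA were not measured on these arrays.

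On each array 69.9% to 78.0% of 43376 spots were well above background, and the number of arrays limits the precision. Each group had a slide to itself, so that the effects of slide and precursor cannot be told apart. The median background subtracted by the scanner software was 163.2 to 177.9 intensity units on the pre-control slide and 69.6 to 73.7 on the pre-miR-27a slide. Of 6 muscle-lineage markers, 5 were well above background on all arrays (MYOD1, MYOG, DES, CHRNA1 and CHRND), and MYF5 did not pass the filter on missing spots. MYOD1, the factor that commits cells to muscle, averaged 12.38 ± 0.17 on the log2 scale without and 11.93 ± 0.10 with pre-miR-27a (SD, n = 3 each). Its groups did not overlap, with a difference of −0.45 (adjusted p = 0.0787, and 0.0363 with the replicate number as a block), and MYOG, the myogenin gene, had −0.95 (adjusted p = 0.140, and 0.0334 with the block). The part of these muscle genes in the results below was not tested. DES, the muscle intermediate filament gene, had 15.60 ± 0.43 and 15.59 ± 0.46. Of 4 blood and epithelial markers, PTPRC, EPCAM and CDH1 were well above background on 0 arrays and CD3E on all arrays, where its brighter probe was lower with pre-miR-27a (−0.44, adjusted p = 0.0348).

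Signals are given as log2 of the processed intensity after quantile normalization, and adjusted p-values are from limma with Benjamini-Hochberg adjustment over all 36469 probes tested. Across all probes, 7.83% had an adjusted p under 0.05, 3.95% higher and 3.88% lower on pre-miR-27a arrays. All 14 member probes passed the filter on missing spots, and on all 6 arrays 13 of them exceeded background clearly. Of the 14, 1 was lower (CSDC2) and 1 was higher (LIN28B) at that threshold, and the CSDC2 call is part of the reason for the choice. The median log2 difference (pre-miR-27a minus pre-control) was 0.08 over the 14 probes and −0.02 over all probes. The groups of arrays did not overlap for 8 of the 14 probes, 5 of them higher and 3 lower, against 32.5% of all probes (14.8% higher and 17.8% lower). With the replicate block the same 2 member probes were called, and 14.9% of all probes were (7.24% higher and 7.62% lower). Probes of a gene are numbered from the brightest, and levels are compared only within a probe. Positions are on hg18, as in the array files.

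**Figure D1:**
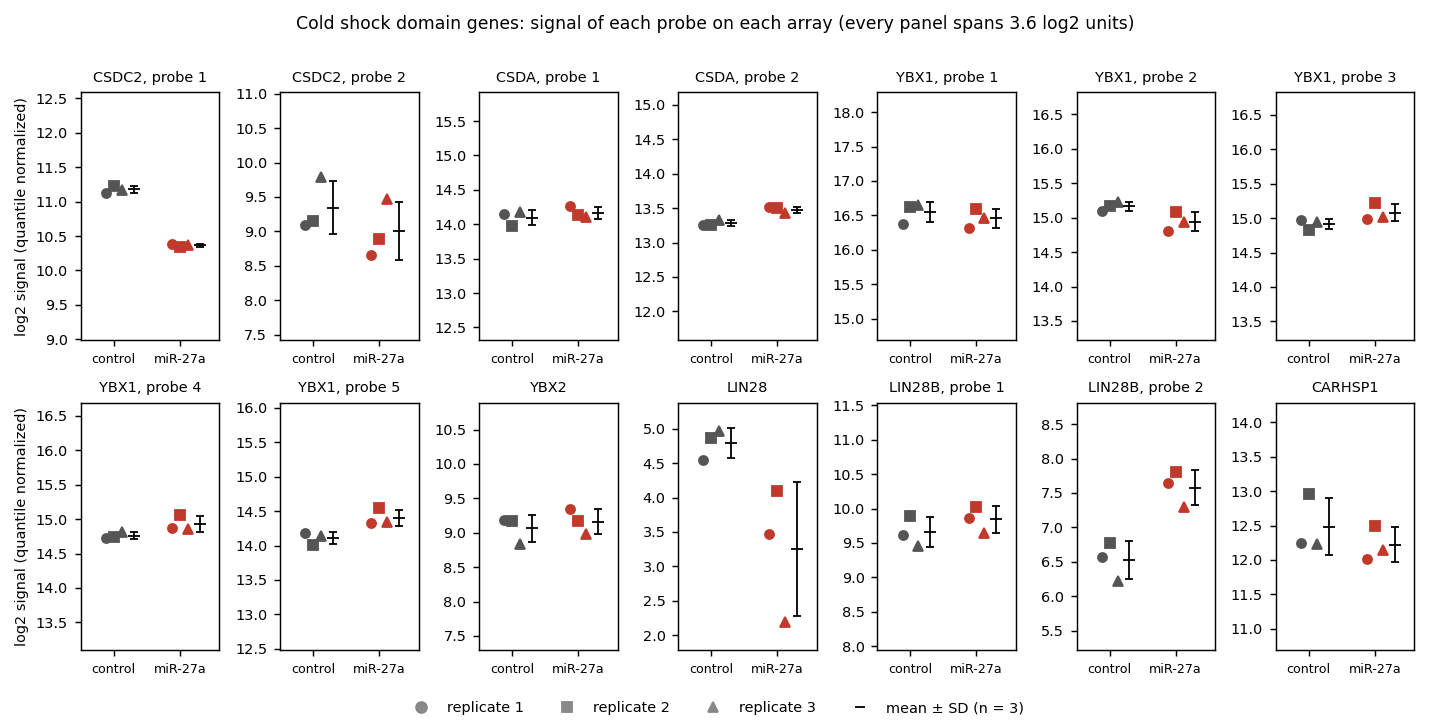
Log2 signal (vertical axis, quantile normalized) of each of the 14 probes on the 3 pre-control arrays (grey) and the 3 pre-miR-27a arrays (red); symbols give the replicate and black bars the mean ± SD. The groups are clearly apart for CSDC2 probe 1 and LIN28B probe 2, and the Y-box probes stay within about 1 log2 unit.

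CSDC2 was lower on pre-miR-27a arrays at its brighter probe. At the other probe the groups overlapped, though the pre-miR-27a array of each same-numbered pair was lower. Probe 1 (chr22:40301246-40301305, plus strand) had log2 signals of 11.13, 11.23 and 11.17 on the pre-control arrays and of 10.38, 10.34 and 10.37 on the pre-miR-27a arrays. Every pre-miR-27a array was below every pre-control array, and the arrays of a group lay close together (SD 0.05 and 0.02, n = 3). The difference was −0.82 (SE 0.07, 95% interval −0.99 to −0.64), a signal 1.76-fold lower. The interval takes no account of the choice of the family by this fall. Total RNA from a culture was measured, so fewer cells with CSDC2 mRNA and less of it per cell cannot be told apart, here and for every gene below.

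CSDC2 probe 2, farther along the transcript strand (chr22:40302084-40302143), gave 9.09, 9.15 and 9.78 on the pre-control arrays and 8.65, 8.89 and 9.47 on the pre-miR-27a arrays. These groups overlapped, since replicate 3 was the highest array of both. The difference was −0.34 (SE 0.28, 95% interval −1.04 to 0.37). Taken by replicate number, the differences were −0.44, −0.25 and −0.32, all lower, and with the replicate block the SE was 0.06. The intervals of both probes overlap, and whether the probes differ from each other was not tested.

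Setting the brighter CSDC2 probe against 19242 probes well above background on all 6 arrays, the 5 named genes with the most similar profile were MLXIPL, a glucose-responsive transcription factor gene (Pearson r = 0.9995 over 6 arrays), KLF14, a Krüppel-like factor gene (0.9991), OLFM2, which encodes an olfactomedin (0.999), ZNHIT2, a zinc finger gene (0.9983), and SYNGR1, which encodes a synaptic vesicle protein (0.9979). Their own differences were −0.85, −0.81, −0.60, −0.79 and −0.68. All are lower on every pre-miR-27a array, and such correlations over 2 groups of 3 arrays mostly carry the gap between the groups.

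The LIN28 pair comprised the only other called probe and the dimmest one. LIN28B probe 1 (chr6:105634620-105634679, plus strand) had log2 signals of 9.62, 9.90 and 9.46 on pre-control arrays and 9.86, 10.02 and 9.64 on pre-miR-27a arrays. The groups overlapped, with a difference of 0.18 (SE 0.16, 95% interval −0.20 to 0.57, adjusted p = 0.532). Taken by replicate number, the differences were 0.24, 0.12 and 0.18 (SE 0.06 and adjusted p = 0.113 with the block). LIN28B probe 2, whose position in the files spans chr6:105512840-105580910 and so lies upstream along the plus strand, gave 6.57, 6.77 and 6.22 against 7.64, 7.80 and 7.29. Every pre-miR-27a array was above every pre-control array. The difference was 1.06 (SE 0.19, 95% interval 0.58 to 1.54, limma adjusted p = 0.0362), a signal 2.08-fold higher.

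The size of the LIN28B difference depended on the background that was subtracted. Before subtraction, the mean spot signal of LIN28B probe 2 was 273.4, 272.1 and 268.8 intensity units on the pre-control arrays and 248.9, 264.7 and 212.6 on the pre-miR-27a arrays. The uncorrected spots were no brighter on any pre-miR-27a array than on the pre-control arrays. Over all spots, the median uncorrected signal, which includes the background, ran from 412.5 to 470.2 in the pre-control group and from 327.8 to 338.4 in the other. After subtraction the medians were 250.9 to 297.6 and 255.5 to 269.6, so these ranges overlapped. The software subtracted a mean of 182.9 units on pre-control arrays and 74.97 on pre-miR-27a arrays, and the processed signals averaged 97.8 and 186.8. With quantile normalization of uncorrected signals the difference was 0.48 (adjusted p = 0.0286), with only the local background subtracted 0.69 (adjusted p = 0.0365), and with normexp correction 0.59 (adjusted p = 0.0282). The direction and the call held in these settings, but the size ranged over more than 1.5 times. Without any 1 of the 6 arrays the difference was 0.91 to 1.20 with adjusted p from 0.0717 to 0.122, so no omission kept the call. The part of the slide background in this difference was not tested.

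LIN28 itself (chr1:26628286-26628345, plus strand) was well above background on 1 of 3 arrays in each group. Its log2 signals were 4.55, 4.87 and 4.97 on pre-control arrays and 3.47, 4.10 and 2.19 on pre-miR-27a arrays. The groups did not overlap, and replicate 3 lay far below the other pre-miR-27a arrays. The difference was −1.54 (SE 0.49, 95% interval −2.75 to −0.33, adjusted p = 0.124), which did not pass the threshold. It was −1.002 with the deposited log2 values (adjusted p = 0.0610), −0.31 with normexp (adjusted p = 0.0986), −0.50 with local background alone (adjusted p = 0.0816) and −0.36 without background correction, where it passed (adjusted p = 0.0385). A change of LIN28 mRNA was not measurable at this brightness.

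**Figure D2:**
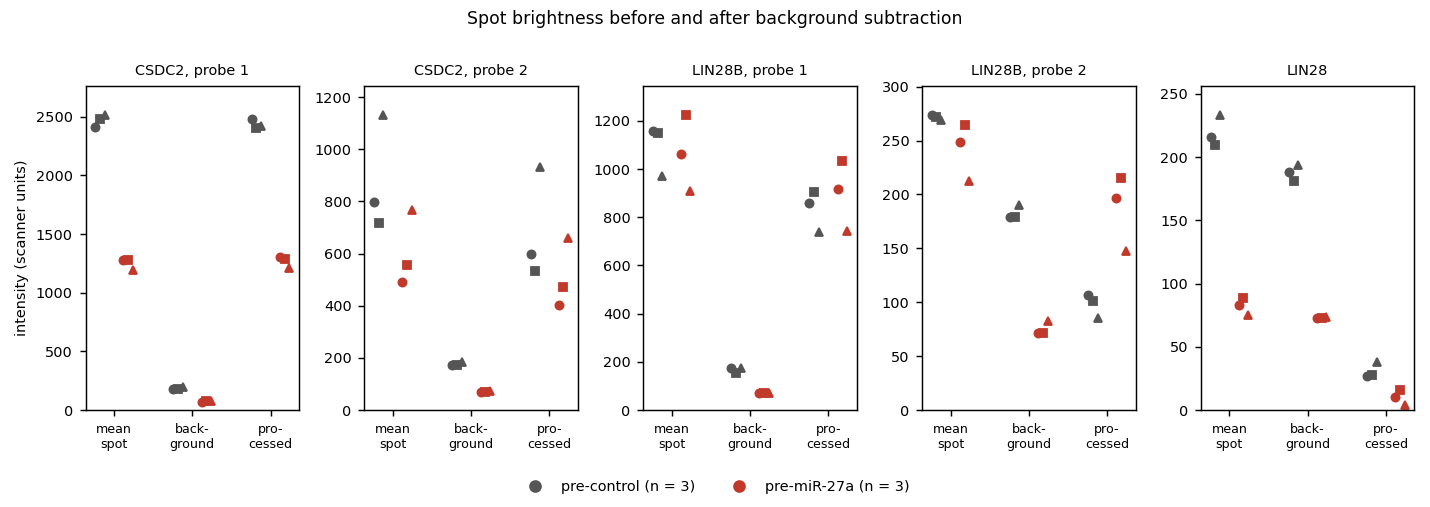
Intensity (vertical axis, scanner units, linear from 0, a scale of its own per panel) of 5 probes on each array as the mean spot signal, the background subtracted and the processed signal; grey, pre-control arrays; red, pre-miR-27a arrays. For CSDC2 probe 1 the groups are apart before and after subtraction, whereas for LIN28B probe 2 they change order, the processed means being 97.8 and 186.8.

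The range between the differences of the 2 LIN28B probes was 0.88, and that of the 2 CSDC2 probes 0.48. Among 5090 genes with several probes well above background on all arrays, whatever the number of probes, the median range was 0.24. A range at least as wide as for LIN28B was found in 5.8% of those genes, and as for CSDC2 in 22.4%.

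The Y-box genes were bright on all arrays and 0 of their 8 probes passed the limma threshold, with 2 at an unadjusted p under 0.05, which 24.8% of all probes reached. YBX1 encodes YB-1, a general mRNA-packaging protein, and its 5 probes did not move together. Taken along the plus strand of chromosome 1, the difference was 0.29 (SE 0.10, adjusted p = 0.145) for probe 5, at chr1:42921681-42931762, whose signals were 14.18, 14.01 and 14.15 against 14.33, 14.54 and 14.34. For probe 3, at chr1:42931766-42934503, it was 0.16 (SE 0.10, adjusted p = 0.358). For probe 4, at chr1:42934975-42935037, it was 0.17 (SE 0.09, adjusted p = 0.303). All pre-miR-27a arrays were above all pre-control arrays at these upstream probes.

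At the downstream end of YBX1 the sign turned. Probe 1 (chr1:42940282-42940341) had signals of 16.38, 16.62 and 16.65 on pre-control arrays and 16.32, 16.60 and 16.46 on pre-miR-27a arrays, a difference of −0.09 (SE 0.12, 95% interval −0.39 to 0.21, adjusted p = 0.700). Probe 2, directly next to it (chr1:42940342-42940401), gave 15.10, 15.17 and 15.23 against 14.81, 15.08 and 14.94, a difference of −0.22 (SE 0.10, 95% interval −0.46 to 0.02, adjusted p = 0.230). The range over the 5 YBX1 probes was 0.51, and 19.8% of the 5090 genes with several probes had a range as wide. Those genes were not matched to YBX1 for the number of probes, with which a range tends to grow. Under scaling to the 75th percentile the YBX1 differences, from upstream to downstream, were 0.17, 0.015, 0.029, −0.27 and −0.38, with adjusted p from 0.112 to 0.948.

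CSDA encodes a Y-box protein also known as a DNA-binding protein and as ZONAB at cell junctions. Its probe 1 (chr12:10743498-10745156, minus strand) gave 14.14, 13.97 and 14.18 on pre-control arrays and 14.26, 14.13 and 14.10 on pre-miR-27a arrays. These overlapped, with a difference of 0.07 (SE 0.09, 95% interval −0.16 to 0.30, adjusted p = 0.716), and the sign turned to −0.05 under scaling to the 75th percentile, a setting that moved the median of all probes to −0.09. Probe 2 (chr12:10742937-10742963) gave 13.25, 13.26 and 13.33 against 13.51, 13.50 and 13.43. The groups did not overlap, and the difference of 0.20 (SE 0.07, 95% interval 0.02 to 0.38, adjusted p = 0.171) did not pass over all probes.

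YBX2, whose protein stores mRNA in germ cells, was well above background on all 6 arrays of this tumour line. Its probe (chr17:7132314-7132373, minus strand) gave 9.19, 9.17 and 8.84 on pre-control arrays and 9.34, 9.17 and 8.98 on pre-miR-27a arrays. The groups overlapped (difference 0.10, SE 0.15, 95% interval −0.27 to 0.46, adjusted p = 0.741). CARHSP1 (chr16:8856490-8856549, minus strand) gave 12.25, 12.96 and 12.24 against 12.01, 12.50 and 12.15. Replicate 2 was the highest array in both groups, the groups overlapped, and the difference was −0.26 (SE 0.24, 95% interval −0.86 to 0.34, adjusted p = 0.570). Taken by replicate number, the CARHSP1 differences were −0.24, −0.46 and −0.09 (SE 0.10 and adjusted p = 0.149 with the block).

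**Figure D3:**
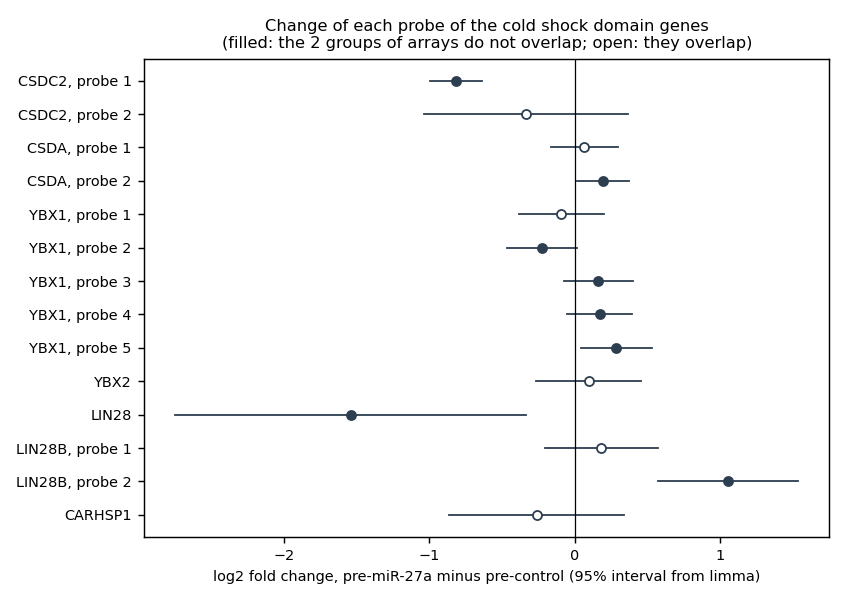
Log2 difference, pre-miR-27a minus pre-control (horizontal axis), of each of the 14 probes with its 95% interval from limma; filled points mark probes whose groups of arrays did not overlap. The interval of CSDC2 probe 1 lies between −0.99 and −0.64 and is no test, since the family was chosen by the fall of CSDC2. That of LIN28B probe 2 lies between 0.58 and 1.54, while the LIN28 interval is the widest.

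Genes around the family were read from 7 lists of 67 genes in all, of which 64 were tested, each by its brightest probe. Of the 64, 3 were called higher and 0 lower, which is 4.69%, against 6.65% of the 16612 genes tested in the same way (2.61% higher and 4.04% lower). The median difference was 0.11 over the 64 genes and −0.04 over all genes. When the replicate number entered the fit as a block, 10 list genes were higher and 1 was lower, and 13.5% of all genes passed. At an unadjusted p under 0.05 in the unblocked limma fit, 14 of the 64 were higher and 3 lower, and 22.9% of all genes reached it (8.73% higher and 14.1% lower). Of the 34 list genes with several probes, 11 were not called at the brightest probe but were called at a dimmer one, 8 higher and 3 lower. The same share over all genes with several probes was not computed, so this count cannot be set against the array. The 7.83% of all probes called is a share of probes and not of genes.

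Among 21 textbook let-7 targets, 2 were called higher, both of them mRNA-binding proteins of fetal and tumour cells. IGF2BP3 (chr7:23317294-23317353) had log2 signals of 12.40, 12.10 and 12.31 on pre-control arrays and 13.41, 13.28 and 13.27 on pre-miR-27a arrays. The groups were well apart, with a difference of 1.05 (SE 0.11, adjusted p = 0.0176). IGF2BP1 (chr17:44487378-44487437) had 13.62, 13.44 and 13.37 against 14.42, 14.44 and 14.27, a difference of 0.90 (SE 0.10, adjusted p = 0.0176). A second, dimmer IGF2BP1 probe, missing on 1 pre-miR-27a array, showed 0.10 (SE 0.11, adjusted p = 0.628). Of the 21, 13 had a positive difference and 8 a negative one, shares not computed over all genes, with a median of 0.15 (−0.04 over all genes). HMGA2, the embryonic chromatin protein most often used as a let-7 readout, had a difference of 0.09 (adjusted p = 0.623) and is named here after its value was seen. With the block MYCN (0.48, adjusted p = 0.0340) and CCND1 (0.62, adjusted p = 0.0374) were called as well.

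Of 9 tested enzymes and cofactors of let-7 maturation and decay, 0 were called by limma and 4 had an unadjusted p under 0.05 (22.9% of all genes), with a median difference of 0.19. Dimmer probes of 4 of these genes were called, 3 higher and 1 lower, and the share over all genes was not computed. KHSRP, which assists let-7 processing, had 15.05 ± 0.03 on pre-control arrays and 15.48 ± 0.16 on pre-miR-27a arrays (SD, n = 3), a difference of 0.43 (adjusted p = 0.0623, and 0.0487 with the block). DROSHA, the nuclear microRNA nuclease, had a difference of −0.05 (adjusted p = 0.741).

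Of 12 genes whose proteins sit with YB-1 on mRNA, 0 were called by limma. An unadjusted p under 0.05 was reached by 5 (22.9% of all genes), 4 higher and 1 lower. The lower one was ELAVL1 (−0.46, adjusted p = 0.128), with −0.05 and −0.14 at its other probes. Of the 12, 10 had a positive difference, a share not computed over all genes, and the median was 0.17 (−0.04 over all genes). The brightest of the 12 was PABPC1, the poly(A)-binding protein, with 16.67 ± 0.12 against 17.09 ± 0.03 (SD, n = 3) and a difference of 0.41 (adjusted p = 0.0525, and 0.0462 with the block). Its other probes showed 0.42 (adjusted p = 0.0690) and 0.48 (adjusted p = 0.0271). STRAP, a WD-repeat partner of YB-1, was at 0.01 (adjusted p = 0.938), with a sign that turned to −0.19 under scaling to the 75th percentile. FMR1, the fragile X protein gene, had 0.37 (adjusted p = 0.238, and 0.0405 with the block) at its brightest probe and 1.33 (adjusted p = 0.0194) at the other. SYNCRIP had 0.27 (adjusted p = 0.124) at its brightest probe and 0.43 (adjusted p = 0.0444) at a dimmer one. HNRNPU had 0.10 (adjusted p = 0.558) and, at a dimmer one, 1.19 (adjusted p = 0.0249). In this list 0 dimmer probes were called lower, and the share over all genes was not computed.

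Of 13 tested genes described as controlled by YB-1, 1 was called. PTPN1, a tyrosine phosphatase, had 12.37, 12.05 and 12.24 on pre-control arrays and 12.80, 12.78 and 12.77 on pre-miR-27a arrays, a difference of 0.56 (SE 0.10, adjusted p = 0.0353). With the block, TOP2A (0.65, adjusted p = 0.0334) and PCNA (0.40, adjusted p = 0.0366), which act in DNA replication, were higher and COL1A1 (−0.35, adjusted p = 0.0466), a fibrillar collagen, was lower. The median over the 13 genes was 0.12.

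Of the 9 tested genes of the smaller lists, 0 were called by limma and 0 had an unadjusted p under 0.05. The cold-induced proteins CIRBP (−0.11, adjusted p = 0.800) and RBM3 (−0.14, adjusted p = 0.892) use another RNA-binding fold, and the groups overlapped at these probes. A dimmer CIRBP probe (chr19:1225341-1225400) was lower (−0.41, adjusted p = 0.0348), and the other CIRBP probes had −0.21 (adjusted p = 0.425) and −0.15 (adjusted p = 0.616). Of mRNAs described as bound by other members, H3-3B was at 0.14 (adjusted p = 0.517, with −0.05 under scaling to the 75th percentile) and TNF at 0.15 (adjusted p = 0.653). Protamine PRM2 was near the bottom of the scale at 2.03 and 2.10. The calcineurin subunits, of the phosphatase that acts on CARHSP1, ranged at their brightest probes from −0.35 (SE 0.46) for PPP3R1 to 0.30 (SE 0.14) for PPP3CA. PPP3CB had −0.02 and PPP3CC −0.09. At the dimmer probes PPP3R1 had 0.64 (adjusted p = 0.460), the opposite sign, and PPP3CA 0.43 (adjusted p = 0.104).

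**Figure D4:**
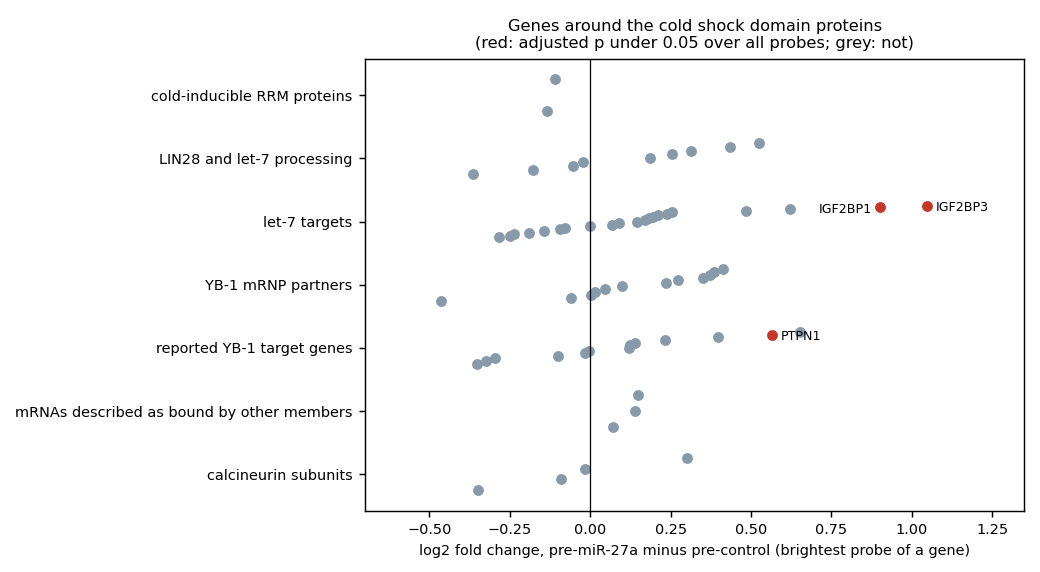
Log2 difference, pre-miR-27a minus pre-control (horizontal axis), of each of the 64 tested genes by its brightest probe, in 7 lists; red, adjusted p under 0.05 over all probes. IGF2BP3 at 1.05, IGF2BP1 at 0.90 and PTPN1 at 0.56 are the called genes.

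Calls on these arrays were fragile to the number of arrays. Without pre-control replicate 1, 1276 probes of the 36469 were called, without pre-control replicate 3, 81, and without any of the other 4 arrays 0, while an unadjusted p under 0.05 was reached by 7178 to 8636 probes in the 6 fits. The CSDC2 probe 1 difference stayed between −0.84 and −0.79, which is no support, since the family was chosen by the fall of CSDC2. It was called only without pre-control replicate 1. IGF2BP3 stayed between 0.96 and 1.11, IGF2BP1 between 0.85 and 0.97 and PTPN1 between 0.48 and 0.64, and these 3 were likewise called only without that array.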

How the data were processed

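Gene expression in RH36 cells was measured on 1-colour Agilent arrays, 3 per group. The authors deposited, for each spot, the processed intensity (background already subtracted by Feature Extraction), the mean spot intensity, the background values and quality flags. A table of normalized log2 values that the authors deposited differed from those computed here by a median of 0.00411 and at most by 1.16. Unused columns of values numbered 0.

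Values of spots the software had not found were treated as missing, log2 processed intensity was quantile normalized, replicate spots were averaged and probes missing on more than 1 array were left out. Groups were compared with limma 3.58.1 in R 4.3.3, adjusted by Benjamini-Hochberg, at a threshold of 0.05. limma took the place of the study's SAM method. The self-test on simulated data returned the changes put in. Figures were drawn with matplotlib 3.10.9.

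A gene of a list is given by its brightest probe. From each list the called genes were named (at most 4, by size), the 2 brightest where none was called, and all genes of lists of up to 5, with the 5 genes most correlated with CSDC2. Members and lists were chosen with earlier results of these data known, and the let-7 and YB-1 lists come from general knowledge.

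Same-numbered arrays deviated from their group means together (r = 0.40, 0.46 and 0.41 over 31717 probes, against −0.27 to −0.12 for other pairs), so the numbers, which the labels give, were taken to pair the arrays. They match the array positions on each slide. The study's methods name a comparison of unpaired classes and its results a paired one, and the unblocked comparison is the main one here. The alternatives were scaling to the 75th percentile, normexp with an offset of 50, no filter, a filter on spots well above background, the replicate block, the deposited log2 values and omission of each array. Signals without background correction, and with the local background subtracted (values below 1 set to 1), were added after seeing the data. The study's methods and the sample labels give different doses, times and reagents. The labels name SiPORT as the reagent, and which conditions apply to the arrays was not settled. Current symbols are from a RefSeq table of GRCh38.p14. Of the list genes, TRIM71 had no probe with its name, and SNAI1 and PRM1 did not pass the filter. A few further pathway and marker genes are not reported here and enter no list or count.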

Additional observations from a re-analysis of the deposited data

How the results depend on the processing

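LIN28B probe 2 was called higher in all 6 planned settings that used all arrays. CSDC2 probe 1 was the 1 lower probe in each, which is no support, since the family was chosen by its fall. Lower member probes numbered 2 without background correction, LIN28 being added, a setting chosen after seeing the data. Higher list genes numbered 3 in the main comparison, 8 with normexp, 8 with the filter on spots well above background, 10 with the replicate block, 10 without background correction and 6 with the local background subtracted. Over the whole array, probes called higher in these settings numbered, in the same order, 1440, 1794, 1778 (of 28798 tested), 2641, 1940 and 1539. Lower list genes numbered 1 with the replicate block, which changed no call of a member probe. With 1 array left out, higher member probes numbered 0 to 0, lower member probes 0 to 1 and higher list genes 0 to 3. The whole array had 0 calls in 4 of these 6 fits, 81 in another and 1276 without pre-control replicate 1, where LIN28B probe 2 also lost its call (adjusted p = 0.0815). Under scaling to the 75th percentile the log2 difference turned to −0.049 for CSDA probe 1, −0.19 for STRAP, −0.049 for H3-3B and −0.82 for PRM2, and with the authors' log2 values to −0.019 for STRAP; the cause was not tested. Signs also turned with 1 array left out, over ranges of −0.017 to 0.19 for YBX2, −0.30 to 0.037 for CIRBP, −0.50 to 0.22 for RBM3, −0.032 to 0.056 for STRAP, −0.011 to 0.12 for PRM2, −0.093 to 0.080 for PPP3CB and −0.70 to 0.031 for PPP3R1. LIN28 and PRM2 are limited by signal near background. LIN28 did not pass the filter on spots well above background and has no value there.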

Other observations

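Genes of the microRNA pathway outside the naming rule were looked at after their values were seen, because the brightest probe was not called and a dimmer one was. The dimmer DICER1 probe (chr14:94627185-94627337) had log2 signals of 9.87, 9.77 and 9.70 on pre-control arrays and 10.64, 10.73 and 10.46 on pre-miR-27a arrays, a difference of 0.83 (limma adjusted p = 0.0190), and the brighter DICER1 probe had 0.31 (adjusted p = 0.118). The probes of DGCR8, the partner of DROSHA, moved apart, with 0.53 (adjusted p = 0.0539) at chr22:18454131-18454190 and −0.56 (adjusted p = 0.0378) at chr22:18478916-18478975. TRIM25, a cofactor of let-7 uridylation, had −0.36 (adjusted p = 0.219) at its brighter probe and 0.91 (adjusted p = 0.0176) at the dimmer one. DIS3L2, the nuclease that degrades uridylated let-7 precursors, had −0.18 (adjusted p = 0.325) at its brightest probe and 0.68 (adjusted p = 0.0266) and 0.51 (adjusted p = 0.103) at the others. An expressed sequence described in the files as similar to Y box protein 1, which is no member since it bears another name, lies on chromosome 14 (chr14:65549963-65550022) and had a difference of −0.42 (adjusted p = 0.190). Another probe set aside with it (chr14:89942372-89942431) was brighter, at 14.55 on pre-control and 14.52 on pre-miR-27a arrays, with −0.04 (adjusted p = 0.884).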
